A study of Mus musculus with 4 samples.

Results

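Tumour necrosis factor (TNF) superfamily ligands and their receptors were followed across the cells of mouse skin in 4 single-cell RNA libraries. The members were taken by symbol: every gene named Tnf, Lta, Ltb, Ltbr, Cd40, Cd40lg, Fas, Fasl, Cd27, Cd70, Ngfr, Edar or Eda2r, or carrying a Tnfsf or Tnfrsf name with a number. This gave 44 of the 32285 genes in the count tables, 17 ligands and 27 receptors. The name alone decided membership, although earlier results of these data were known when the list was set. Each had at least 1 UMI somewhere, and 32 had at least 1000 UMIs over the 4 libraries. Cd70, Tnfrsf13c and Tnfrsf17 stayed under 30 UMIs in each library, and no cell class is assigned to them.

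All mice were female C57BL/6J animals of 6 to 8 weeks, and each library pooled neck and ear skin from 3 mice. The reference library came from untreated mice. Oxazolone, a contact hapten, was given once at 3% for sensitisation and then at 1.0% every other day from day 7, each time as 100 µL, with skin taken at day 10 (oxazolone d10) or at day 16 (oxazolone d16). MC903 (calcipotriol), a vitamin D analog that gives mice a dermatitis, was applied daily as 1 nmol in 100 µL for 9 days. A vehicle-only library was not analysed here, and the agents and their solvents cannot be told apart. Skin was digested with an enzyme mix that included collagenase, chosen to free more fibroblasts, and dead cells were removed, so shares of cells also reflect the digestion.

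The untreated, oxazolone d10, oxazolone d16 and MC903 libraries held 7221, 7694, 7371 and 3703 kept cells, with median depths of 10249, 11293, 8869 and 14437 UMIs (unique molecular identifiers, each standing for 1 captured RNA molecule). Pairs of libraries shared 5 to 13 cell barcodes. There was 1 library per group and the 3 mice inside it could not be separated, so no difference has a replicate check and no p-value is given. Intervals are 95% intervals for counting error only. Levels are given as CPM, a gene's UMIs per 1000000 UMIs of a class in a library. A member was measured in a comparison when it had at least 30 UMIs over the pair of libraries and each library had at least 50 cells of the class, and it was called higher or lower at 2-fold. The comparisons with untreated skin share that library, so they are not independent of each other. Clusters were named from marker genes and carry the ending "-like". The class called macrophage-like here was named from macrophage and monocyte markers together and holds cells of both kinds. One of its clusters is B7, led by Lyz2, F13a1 and Chil3, with 367 of the 1916 cells at d10 and 166 of the 1583 at d16. Fibroblast markers, for example, summed to 40500, 38900, 29400 and 20900 CPM in fibroblast-like cells and to at most 468 CPM in neutrophil-like cells. The 4 libraries left 7.15%, 6.86%, 5.9% and 22.1% of their cells unnamed, in the order above, under thresholds that were chosen after the data were seen.

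TNF superfamily ligands are mostly made as trimers on the cell surface, from which some are cleaved, and they act on neighbouring cells through trimeric receptors. Receptors with a death domain, such as Tnfrsf1a and Fas, can start cell death or NF-kB signaling, while others, such as Tnfrsf1b, Cd40 and Tnfrsf9, bind TRAF adaptors and mainly support activation and survival. Decoy members such as Tnfrsf11b take up ligand without passing on a signal. In skin the family is known for TNF-driven inflammation, for costimulation of T cells, and, through Edar and Ngfr, for the building of hair follicles and nerves.

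The start regions of 4 ligand genes are shown because the results turn on them: Tnf, Ltb and Lta lie side by side on chromosome 17 and shared their largest holder only in part, and Tnfsf11 on chromosome 14 had a different main source in treated and untreated skin. The gaps are 3060 bases between Ltb and Tnf and 1157 bases between Tnf and Lta (GRCm38). The windows run from 250 bases before to 50 bases after the start in RefSeq, build GRCm38.p6, 5′ to 3′ on the gene's strand: chr17:35201958-35202257 (minus strand) for Tnf, chr17:35194257-35194556 (plus) for Ltb, chr17:35205302-35205601 (minus) for Lta and chr14:78307994-78308293 (minus) for Tnfsf11. Capitals mark the letters TATAAA in Tnf and Lta and the NF-kB match in Ltb.
Tnf: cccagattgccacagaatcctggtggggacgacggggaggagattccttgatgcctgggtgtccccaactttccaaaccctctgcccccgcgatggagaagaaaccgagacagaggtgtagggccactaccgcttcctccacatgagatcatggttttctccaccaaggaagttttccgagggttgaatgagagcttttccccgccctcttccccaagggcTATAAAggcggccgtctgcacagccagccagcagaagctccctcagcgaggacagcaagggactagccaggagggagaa
Ltb: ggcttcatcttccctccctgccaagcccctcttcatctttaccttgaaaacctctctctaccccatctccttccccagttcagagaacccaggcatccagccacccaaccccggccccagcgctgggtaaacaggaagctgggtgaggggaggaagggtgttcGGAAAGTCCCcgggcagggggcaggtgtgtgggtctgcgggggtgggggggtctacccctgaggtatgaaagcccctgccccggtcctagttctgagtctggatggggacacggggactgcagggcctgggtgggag
Lta: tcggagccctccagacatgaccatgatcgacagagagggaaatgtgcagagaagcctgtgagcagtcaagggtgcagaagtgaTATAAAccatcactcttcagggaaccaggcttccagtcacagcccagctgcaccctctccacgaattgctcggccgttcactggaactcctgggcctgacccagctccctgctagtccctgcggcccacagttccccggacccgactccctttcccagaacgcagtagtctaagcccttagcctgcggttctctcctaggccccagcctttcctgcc
Tnfsf11: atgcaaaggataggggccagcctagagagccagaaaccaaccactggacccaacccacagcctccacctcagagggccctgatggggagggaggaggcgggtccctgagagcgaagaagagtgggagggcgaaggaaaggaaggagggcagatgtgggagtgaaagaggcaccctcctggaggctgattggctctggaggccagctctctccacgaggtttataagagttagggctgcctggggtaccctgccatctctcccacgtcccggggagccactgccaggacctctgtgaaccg
TATAAA on the gene's strand begins 29 bases before the start of Tnf and 167 bases before that of Lta, and it occurs in 8.88% of 27025 promoters of this length. The NF-kB motif, spelled GGG, any 2 bases and TTTCC, on either strand, which occurs in 1.62% of promoters, match 87 bases before the start of Ltb on the minus strand. Of the 34 members with a promoter in the table, 2 hold that motif (Ltb and Tnfrsf25), 5 hold TATAAA (Tnf, Lta, Tnfsf18, Eda2r and Tnfrsf17) and 5 hold the AP-1 letters TGANTCA on either strand, found in 7.93% of promoters (Fas, Tnfrsf8, Tnfsf13, Tnfsf13b and Tnfsf14). A match is a description of the letters, not evidence of binding. Promoters were not looked up for the other 10 members, which have no entry: Cd40, Cd40lg, Cd70, Tnfsf4, Tnfsf9, Tnfsf12, Tnfrsf10b, Tnfrsf11b, Tnfrsf22 and Tnfrsf26.

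Summed over all kept cells, Tnf stood at 20.7 CPM in untreated skin, 26.1 at oxazolone d10, 271 at d16 and 67.2 with MC903. Its receptor Tnfrsf1b was at 26, 65.8, 255 and 66.7 CPM, and Tnfrsf1a at 58.5, 78.7, 110 and 86.3. For all 3 genes the d16 library was the highest and the untreated library the lowest. Tnfsf11, the ligand of RANK, had another order, with 2.93, 8.39, 7.77 and 22.7 CPM and its highest value with MC903. Over all kept cells 13 of 42 measured members were at least 2-fold higher and 8 lower at oxazolone d10 than in untreated skin, against 12.4% and 10.2% of all genes. At d16, 14 of 42 were higher and 7 lower, against 15.2% and 41.9%, and with MC903 10 of 41 were higher and 8 lower, against 12.4% in each direction. In such sums a change in the number of cells of a type and a change in RNA per cell cannot be told apart, and the cell mix differed widely. Neutrophil-like cells, for instance, numbered 19, 1759, 4214 and 277 in the 4 libraries, and fibroblast-like cells 2022, 511, 351 and 1259.

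**Figure D1:**
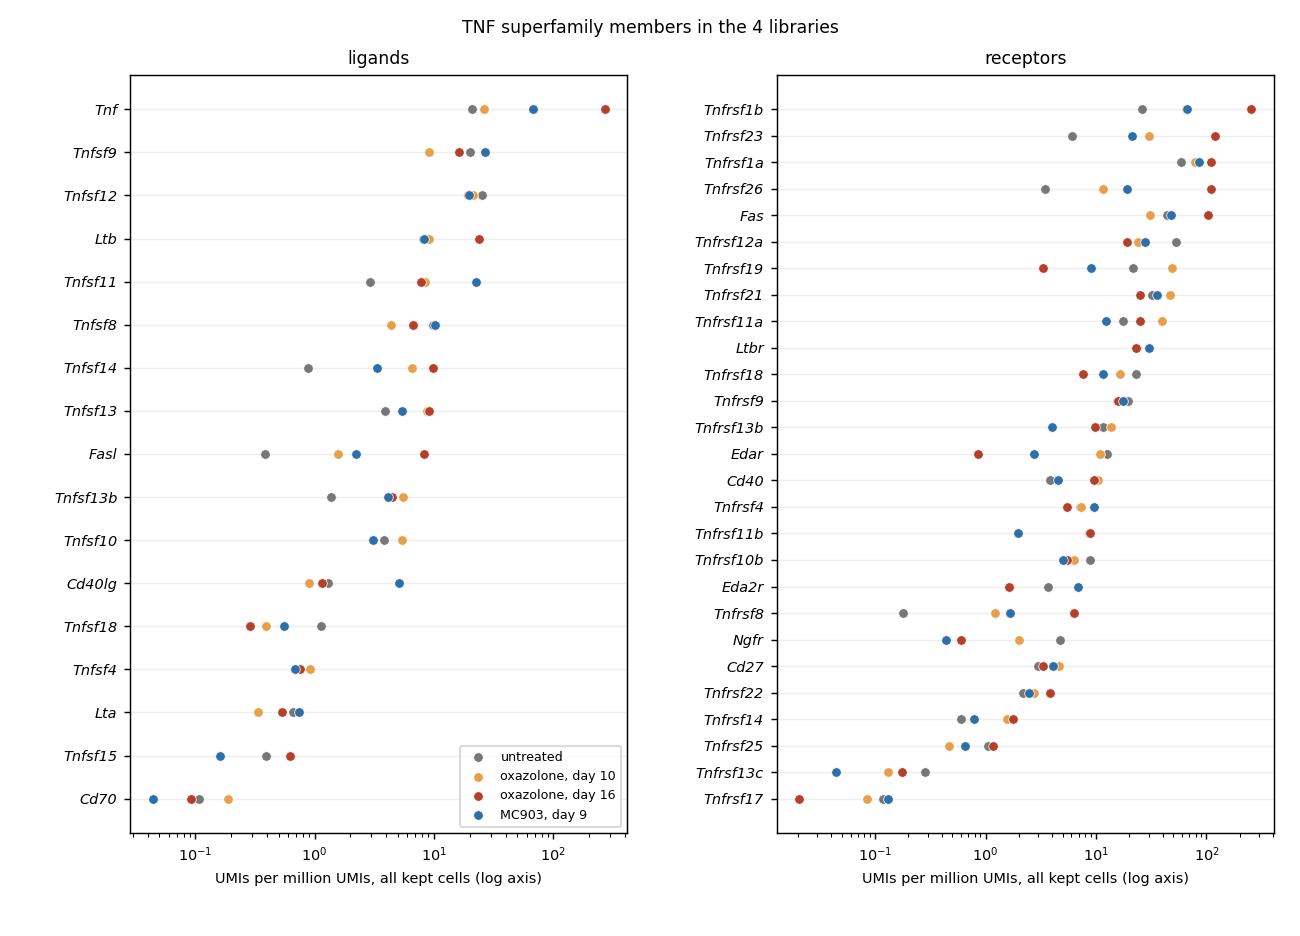
Level of each of the 44 members over all kept cells of each library, in CPM on a log axis, with ligands and receptors in separate panels and 1 point per library. Tnf, Tnfrsf1b, Tnfrsf23, Tnfrsf26 and Fasl have their highest point at oxazolone d16, whereas Tnfsf11 and Cd40lg have it with MC903.

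The cells that held most of a member's UMIs differed from library to library. Of the 38 members with at least 30 UMIs in every library, 0 had the same largest holder in all 4 libraries, 20 had 2 holders and 18 had 3 or 4. The same count was not made over all genes. Class sizes differed widely, with keratinocyte-like cells at 26.6%, 18.1%, 1.02% and 3.35% of cells. The count can therefore not be read as particular to the members. Tnf went from conventional dendritic-like cells in untreated skin (46.5% of its UMIs) to macrophage-like cells at oxazolone d10 (52.2%), neutrophil-like cells at d16 (78.3%) and macrophage-like cells again with MC903 (33.7%, with 26.8% in neutrophil-like cells). Ligand and receptor mostly had different main holders: of 28 ligand and receptor pairs, 23, 24, 23 and 23 had both sides measured in the 4 libraries, and the same class led both sides in 2, 2, 5 and 2 of them. The 5 pairs at d16 were Tnf with Tnfrsf1a, Tnf with Tnfrsf1b and Fasl with Fas in neutrophil-like cells, Tnfsf11 with its decoy Tnfrsf11b in fibroblast-like cells, and Tnfsf13 with Tnfrsf13b in macrophage-like cells. Pairs of other genes were not counted, and neutrophil-like cells made up 57.2% of the kept cells at d16.

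**Figure D2:**
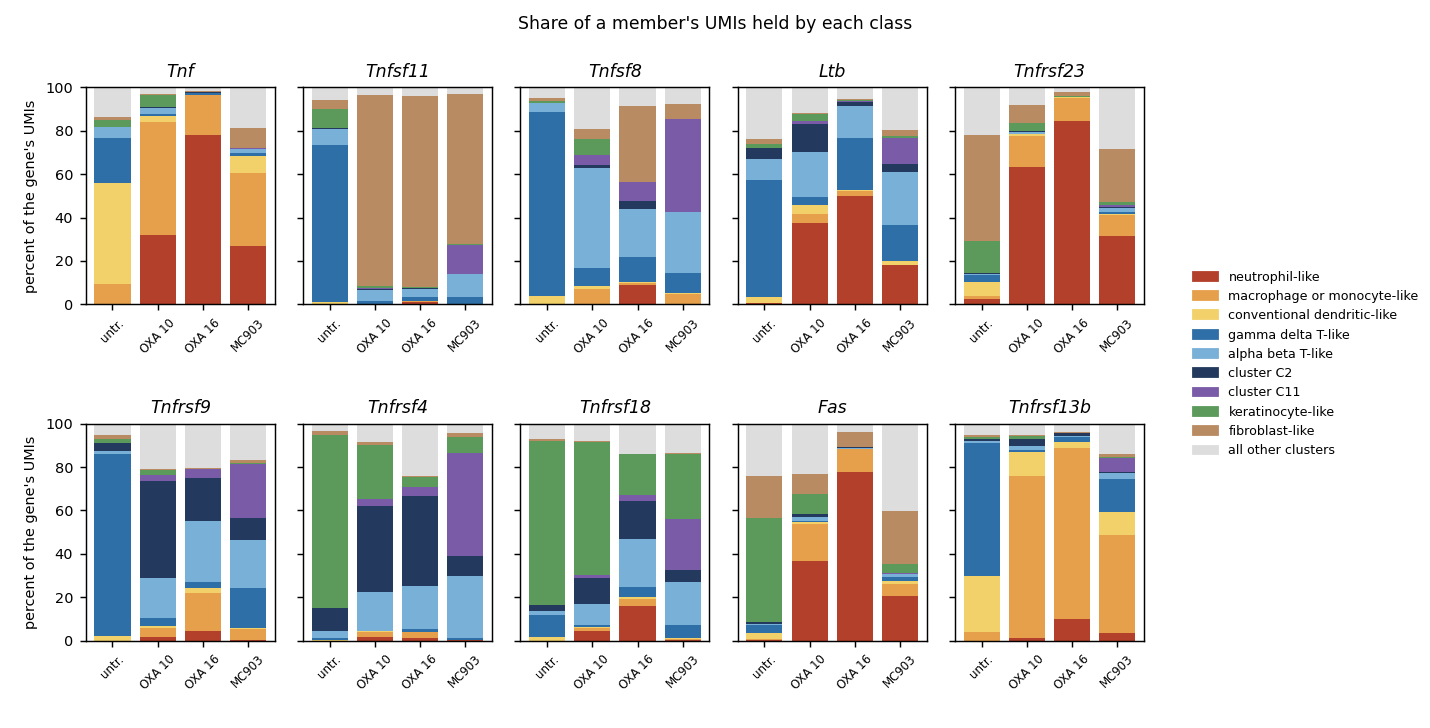
Share of the UMIs of 10 members held by each cell class, as stacked bars that fill each library's total, for untreated skin, oxazolone d10, oxazolone d16 and MC903. Tnfsf11 passes from gamma delta T-like cells (72.4%) to fibroblast-like cells (88.3%, 88.3% and 69.5%), and Tnf, Tnfrsf23 and Fas are mostly in neutrophil-like cells at d16.

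In each treated library Tnf, the founding cytokine of the family, stood highest in neutrophil-like cells among the classes with at least 50 cells. Its level there was 95.5 CPM (95% interval 89.3 to 102) at oxazolone d10, 619 (611 to 628) at d16 and 620 (586 to 655) with MC903, whereas the untreated library had only 19 such cells and 1 Tnf UMI. At d10 gamma delta T-like cells, with 49 cells under that minimum, stood at about the same level, as given below. Between d10 and d16 the log2 ratio in neutrophil-like cells was 2.70 (2.60 to 2.80). The share of neutrophil-like cells with a Tnf UMI, after thinning each cell to 1000 UMIs, was 7.93%, 28.8% and 30.4% in the same order, and without thinning 21.8%, 60.8% and 56.7%. The class was made up of different clusters: B2, led by Retnlg and Mmp8, held 1314 of the 1759 cells at d10, and B0, B3 and B1 held 1655, 1320 and 1169 of the 4214 at d16. Within B0, led by Il1a and Ccrl2, Tnf was at 251 CPM at d10 and 1310 at d16, a log2 ratio of 2.38, and in B2 it was at 65.9 and 76.5. Without B2 the class ratio was 1.75, so the difference remained past 2-fold and was smaller.

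Macrophage-like cells had 157 CPM of Tnf in untreated skin, 58.7 at oxazolone d10, 146 at d16 and 392 with MC903. d10 was therefore lower than untreated skin (log2 ratio -1.42) and MC903 higher (1.32), while d16 was not called. The clusters differed in the same libraries: B9 was at 141, 35.6, 52.3 and 76.5 CPM, B5 at 175, 63.8, 74.3 and 567, and B4, led by Ccl24 and Arg1, at 18.8 at d10, 183 at d16 and 388 with MC903. B9 and B5 held 54 and 39 of the 114 untreated macrophage-like cells, and B4 held 0. B5 held most at d10 (1136 of 1916), B4 most at d16 (1149 of 1583), and B4 72 of 165 with MC903. The class value thus rests on different clusters in each library, and the same limit applies to every macrophage-like ratio given here.

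Tnf was lower in alpha beta T-like cells of all treated libraries, and in conventional dendritic-like cells with oxazolone. The former were at 270 CPM in untreated skin (86 UMIs in 56 cells), 34.2 at d10, 39.4 at d16 and 67.2 with MC903, with log2 ratios of -2.98, -2.78 and -2.00. The class rests on different clusters: C8, led by Cd28, Slamf1 and Cd4, held 31 of the 56 untreated cells, C7 and C1 held 83 and 79 of 236 at d10, and C1, a Cd8a cluster, held 124 of 173 at d16 and 62 of 87 with MC903. Within C8 Tnf was at 285 CPM untreated (40 UMIs) and 65 at d10 (16 UMIs). Conventional dendritic-like cells were at 124 CPM in untreated skin and at 25.7 and 32.3 at d10 and d16 (-2.27 and -1.94). MC903 left only 34 such cells, at 318 CPM. Their clusters differ too: B14 held 200 of 567 cells in untreated skin, 17 of 196 at d10 and 10 of 51 at d16. This limit applies to every conventional dendritic-like ratio given here. Gamma delta T-like cells stood near one level in all libraries, with 95.6, 95.7, 97.9 and 79.9 CPM, the d10 value from only 49 cells. In basophil-like cells, the granulocytes named in the study's title, Tnf was at 18.6 CPM at d10 (9 UMIs), 201 at d16 (94 UMIs) and 219 with MC903. Different clusters make up this class too: D2 held 41 of 81 cells at d10, D1, led by Csf2, Il4 and Il13, 29 of 58 at d16, and D3 and D1 held 23 and 22 of 63 with MC903. The d16 over d10 log2 ratio was 3.43, while the summed level of the neutrophil markers in the same cells was 1950, 15100 and 254 CPM, which is 1.43%, 11.6% and 0.221% of their level in neutrophil-like cells, against 19.5%, 32.5% and 35.4% for Tnf. Among basophil-like cells 2 of 8 measured members were higher at d16 than at d10 and 1 lower, against 6.25% and 28.3% of all genes.

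Fibroblast-like cells held little Tnf in untreated skin (1.00 CPM, 25 UMIs) and at oxazolone d10 (0.851 CPM, 10 UMIs). The level was 15.5 CPM (198 UMIs) at d16 and 13.4 CPM (406 UMIs) with MC903, with log2 ratios over untreated skin of 3.95 (3.35 to 4.62) and 3.74 (3.16 to 4.39). Few cells carried it: the 5 highest cells held 48.5% of these UMIs at d16 and 69.0% with MC903, where 1 cell held 146. Neutrophil markers moved alongside, with a summed level in fibroblast-like cells of 4.88, 451, 2340 and 1110 CPM in the 4 libraries. Relative to neutrophil-like cells, Tnf in fibroblast-like cells was at 2.5% and the markers at 1.8% at d16, and with MC903 at 2.16% and 0.97%. Their part in the Tnf values was not tested.

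Tnfrsf1b, the TNF receptor without a death domain, was found mainly in leukocytes. Neutrophil-like cells had 234 CPM at d10, 503 at d16 and 759 with MC903, macrophage-like cells 166, 144, 194 and 245 CPM over the 4 libraries, and gamma delta T-like cells 188, 123, 157 and 306. Its main holder was accordingly gamma delta T-like in untreated skin (32.7%), macrophage-like at d10 (50.9%) and neutrophil-like at d16 and with MC903 (67.7% and 33.0%). In keratinocyte-like cells it was near 0 in untreated skin (0.834 CPM, 26 UMIs) and higher in each treated library, at 3.12, 9.67 and 4.56 CPM, with log2 ratios of 1.90, 3.54 and 2.45. The last 2 rest on 25 UMIs each. Relative to neutrophil-like cells the keratinocyte values of Tnfrsf1b were 1.33%, 1.92% and 0.601%, and those of the neutrophil markers 0.476%, 1.93% and 0.0336%. At d16 the receptor and the markers stood at the same relative level, and at d10 and with MC903 the markers stood below the receptor. With MC903 neutrophil-like cells held only 33.0% of Tnfrsf1b. The part of RNA from other cells in the keratinocyte values was not tested.

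Tnfrsf1a, the death domain receptor for TNF, was spread over most classes and moved little. Fibroblast-like cells were at 72.2, 76.5, 119 and 100 CPM, keratinocyte-like cells at 68.8, 63.6, 87.5 and 81.5, and macrophage-like cells at 63.8, 85, 70.4 and 113. None of these passed 2-fold over untreated skin. Its largest holders were keratinocyte-like cells in untreated and d10 skin (43.7% and 25.3%), neutrophil-like cells at d16 (54.4%) and fibroblast-like cells with MC903 (51.6%). Gamma delta T-like cells did differ, with 6.34 CPM in untreated skin, 13.2 at d16 and 13.1 with MC903 (log2 ratios 1.06 and 1.05, the latter at 0.88 with TMM scaling and 0.35 without the 5 highest cells). They lay in different clusters in each of these libraries, given below for Tnfsf11.

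**Figure D3:**
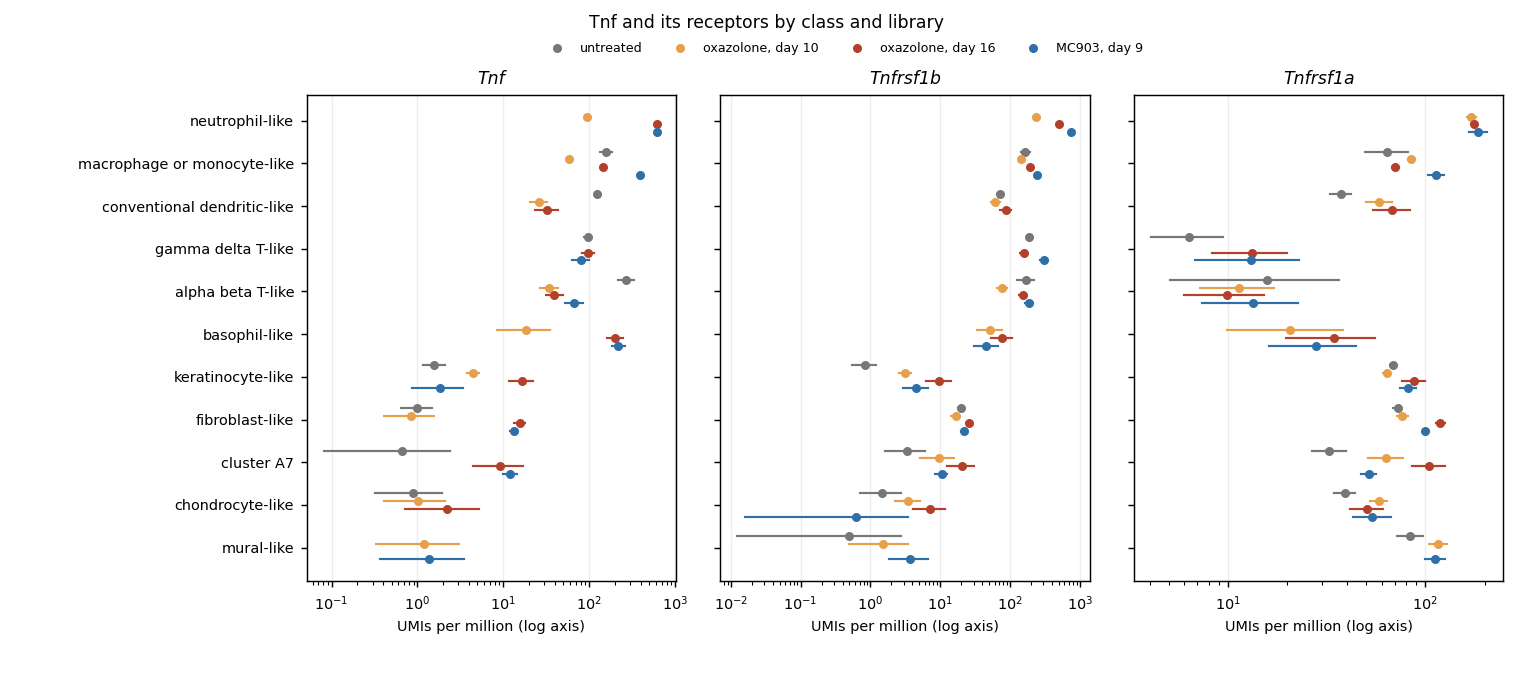
Levels of Tnf, Tnfrsf1b and Tnfrsf1a by cell class and library, in CPM on a log axis with 95% Poisson intervals; values of 0 and classes under 50 cells are not drawn. Tnf lies at 619 and 620 CPM in neutrophil-like cells at d16 and with MC903, and Tnfrsf1a varies less between classes than Tnfrsf1b.

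Tnfsf11 (RANKL), the ligand that drives osteoclast formation and lymph node development through RANK, had the largest log2 ratio of any measured member in fibroblast-like cells in each treated library. Its level in these cells was 0.44 CPM in untreated skin (11 UMIs in 2022 cells), 67.2 CPM at oxazolone d10 (790 UMIs), 52.1 at d16 (666 UMIs) and 35.5 with MC903 (1076 UMIs). All 3 treated libraries were far above the untreated one, with log2 ratios of 7.26 (6.41 to 8.26), 6.89 (6.04 to 7.9) and 6.33 (5.49 to 7.34). The transcripts were spread over cells: 19.4%, 18.2% and 12.9% of treated fibroblast-like cells had a UMI, against 0.247% in untreated skin, and the 5 highest cells held 19.9%, 31.4% and 17.9% of the UMIs. Thinned to 1000 UMIs per cell the shares were 0.0501%, 2.01%, 3.88% and 1.57%. Neutrophil-like cells, which should lack the gene, had a Tnfsf11 UMI in 0.0569%, 0.142% and 0.361% of cells unthinned in the treated libraries and 0.0587%, 0.0486% and 0% thinned. Median depth was 11884, 21509, 35608 and 21584 UMIs in fibroblast-like cells and 4957, 7146 and 6764 in treated neutrophil-like cells.

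Tnfsf11 was not raised in every fibroblast-like cluster. A19, led by Cxcl5, Saa3, Tnc and Ptx3 and found almost only in treated skin, had 97.9 CPM at d10, 64.2 at d16 and 63.2 with MC903. A12, led by Ccbe1 and Cyp26b1, went from 1.02 CPM in untreated skin to 63.4 with MC903, a log2 ratio of 5.96 within the cluster. A11, led by Coch and Dkk2, had 0 UMIs in untreated skin, 0.873 CPM at d10 and 16.7 with MC903, at least 4.03 higher on the log2 scale. The fibroblast-like cluster with most MC903 cells, A18 (Cxcl13, Apod, Ccl11; 528 cells), was at only 1.54 CPM, and A6 (Pi16, Clec3b) had 0.264 CPM in untreated skin and 0 UMIs in treated skin. Different clusters make up the class in each library: A6, A11 and A12 held 1066, 433 and 408 of the untreated cells, A19 and A11 held 228 and 219 at d10, A19 held 255 at d16, and A18 and A12 held 528 and 403 with MC903.

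In lymphoid cells Tnfsf11 took other directions. Gamma delta T-like cells, its main source in untreated skin (72.4% of UMIs), had 47.0 CPM there, 9.01 at d16 (log2 ratio -2.38) and 56.9 with MC903. This class rests on different clusters: C0 and C3 held 382 and 152 of 671 untreated cells. C4, led by Il17a and Il17f, held 149 of 158 at d16, and C9 and C6 held 47 and 31 of 104 with MC903. The same limit applies to every gamma delta T-like ratio given here. Alpha beta T-like cells had 56.4 CPM in untreated skin (18 UMIs), then 22.8, 12.3 and 157, in the differing clusters named for Tnf, with log2 ratios of -1.31, -2.20 and 1.48. Without the 5 cells with most Tnfsf11 the d10 ratio turned to 0.18. An unnamed MC903 cluster of 47 cells, C11, led by Il2ra, Gata3 and Cd4, stood at 250 CPM and held 13.4% of that library's Tnfsf11.

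Tnfrsf11b (osteoprotegerin), the soluble decoy that takes up RANKL, rose with oxazolone in the same fibroblast-like cells and fell with MC903. It stood at 6.04 CPM in untreated skin, 26.9 at d10, 46.0 at d16 and 1.91 with MC903, with log2 ratios of 2.15 (1.87 to 2.44), 2.93 (2.67 to 3.2) and -1.66 (-2.12 to -1.21). The opposite directions were also seen inside A11, at 12 CPM untreated, 24.4 at d10 (1.03) and 2.79 with MC903 (-2.10), and in A19, at 28.8 and 52.6 CPM with oxazolone and 6.04 with MC903. Chondrocyte-like cells of the ear cartilage, the largest holders in untreated skin (46.7%), had 50.8, 45.9 and 90.7 CPM in the untreated and oxazolone libraries and 8.77 with MC903 (log2 ratio -2.53). Keratinocyte-like cells had 5.87 CPM in untreated skin (183 UMIs) and 0 UMIs with MC903, a log2 ratio of at most -3.42. The MC903 library was thus the lowest in each of these 3 classes.

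Tnfrsf11a (RANK), the signaling receptor, was held by other cells than its ligand in each library. Macrophage-like cells had 157, 142, 58.5 and 88.2 CPM, called lower at d16 (log2 ratio -1.42, but -0.88 with TMM scaling), and conventional dendritic-like cells 69.1, 54.9 and 30 CPM in the untreated and oxazolone libraries (-1.21 at d16). In keratinocyte-like cells Tnfrsf11a was lower in each treated library, at 20.5 CPM untreated and 2.85, 3.48 and 5.29 treated (log2 ratios -2.84, -2.56 and -1.95). At d10 and with MC903 this held inside single clusters: A10 went from 12.9 to 3.37 CPM at d10 (-1.94). A16 went from 35.0 to 11.4 at d10 (-1.62) and 4.76 with MC903 (-2.88). At d16 no such cluster was compared, and A13, a follicle cluster, held 37 of the 75 keratinocyte-like cells. Fibroblast-like cells had little, at 1.44, 3.23, 1.17 and 0.264 CPM, with d10 higher (1.17; 0.85 without the 5 highest cells) and MC903 lower (-2.45) than untreated skin.

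**Figure D4:**
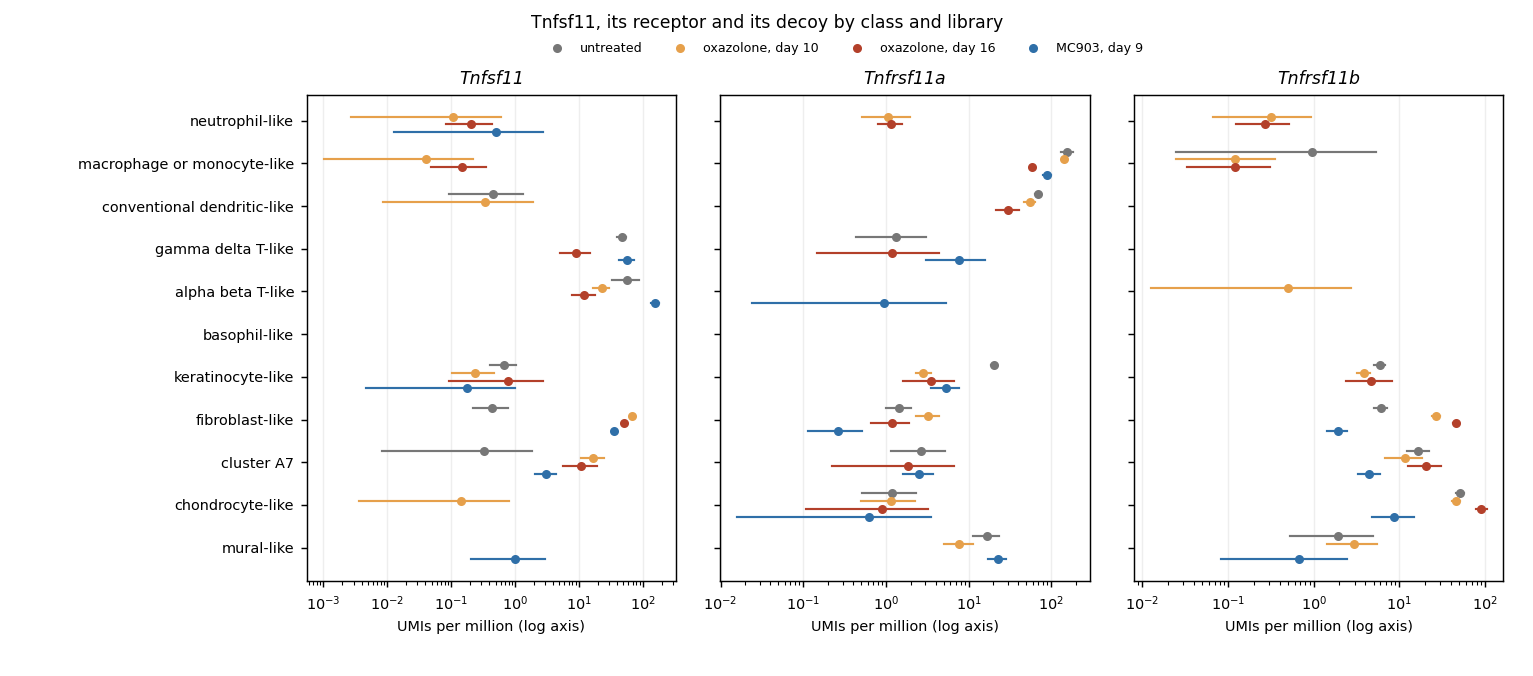
Levels of Tnfsf11, Tnfrsf11a and Tnfrsf11b by cell class and library, in CPM on a log axis with 95% Poisson intervals; values of 0 and classes under 50 cells are not drawn. In fibroblast-like cells Tnfsf11 lies at 67.2, 52.1 and 35.5 CPM in treated skin against 0.44 untreated, while Tnfrsf11b is high with oxazolone (26.9 and 46.0) and low with MC903 (1.91).

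The lymphotoxins Lta and Ltb lie beside Tnf. At d16 neutrophil-like cells were the largest holder of both Ltb and Tnf, and in the other libraries the largest holders of these 2 genes differed. Ltb, which anchors lymphotoxin at the cell surface, was held by gamma delta T-like cells in untreated skin (54.2%), neutrophil-like cells at d10 and d16 (37.3% and 50%) and alpha beta T-like cells with MC903 (24.4%). Its level in gamma delta T-like cells was 96.9 CPM in untreated skin, 335 at d16 (558 UMIs) and 103 with MC903, so only d16 was called (log2 ratio 1.79). At that time 149 of the 158 cells belonged to C4, a cluster led by Il17a, Il17f and Il23r, whereas C0 and C3 held 382 and 152 of the 671 untreated cells. Alpha beta T-like cells stood at 207, 101, 167 and 132 CPM, lower at d10 (-1.04; -0.81 with TMM scaling). Lta was scarce, with 55, 36, 52 and 51 UMIs per library and gamma delta T-like or alpha beta T-like cells as main holders. Ltbr, the receptor for both lymphotoxin and LIGHT, was held by fibroblast-like cells in untreated and MC903 skin (50.3% and 53.0%) and by macrophage-like cells at d10 and d16 (37.5% and 46.8%). It stayed between 33 and 39.3 CPM in fibroblast-like cells and was called only in keratinocyte-like cells with MC903, at 32.3 CPM against 15.1 (1.09; 0.93 without the 5 highest cells).

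Tnfsf14 (LIGHT), a ligand of Ltbr and Tnfrsf14, was at 0.882, 6.5, 9.9 and 3.32 CPM over all kept cells. Macrophage-like cells had 1 UMI in untreated skin (0.967 CPM) and 9.85, 5.53 and 11.7 CPM in treated skin, with log2 ratios of 3.35, 2.52 and 3.59. Neutrophil-like cells, its main holders in all treated libraries, had 39.9, 20 and 31.7 CPM. Basophil-like cells were at 37.3 CPM at d10, 98.5 at d16 and 40.9 with MC903, with d16 higher than d10 (1.40, 46 against 18 UMIs), again across the different clusters named for Tnf. Tnfrsf14 (HVEM) was low, between 50 and 171 UMIs per library, with fibroblast-like cells as the main holders in untreated skin (40.0%) and macrophage-like cells in treated skin (73.5%, 49.7% and 37.0%).

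Tnfsf12 (TWEAK) was lower in treated macrophage-like and fibroblast-like cells, its 2 main sources. Macrophage-like cells had 110 CPM in untreated skin and 53.9, 36.7 and 50.2 in treated skin (log2 ratios -1.03, -1.59 and -1.13). With TMM scaling the d10 and MC903 ratios, at -0.91 and -0.95, were short of 2-fold. Fibroblast-like cells had 53.9, 29.6, 35.3 and 22.8 CPM, of which only MC903 was called (-1.24); within A12 the MC903 ratio was -1.76. Tnfrsf12a (Fn14), its receptor, which is known to appear in injured tissue, was called lower in keratinocyte-like cells at d10 (30 against 72.6 CPM, -1.27), where d16 and MC903 were at 76.2 and 53.8. It was higher in macrophage-like cells with MC903 (36.0 against 12.6 CPM, 1.52) and in neutrophil-like cells at d16 compared with d10 (14.9 against 4.83, 1.62). In fibroblast-like cells it stood at 50.4, 53.6, 31.7 and 27.2 CPM. Tnfsf12 and its neighbour Tnfsf13 lie 465 bases apart and share an antisense gene, so with strand use not given their counts carry that uncertainty.

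Several ligands known to costimulate T cells were found outside T cells. Tnfsf9 (4-1BBL), the ligand of Tnfrsf9, was held by conventional dendritic-like cells in untreated skin (58.1%), macrophage-like cells with oxazolone (55.9% and 67.5%) and fibroblast-like cells with MC903 (38.7%). Conventional dendritic-like cells had 150 CPM untreated and 38.5 at d10 (log2 ratio -1.96), and macrophage-like cells 38.7, 21.9, 32.1 and 105 CPM, with MC903 higher (1.44). In fibroblast-like cells Tnfsf9 was at 17.1, 6.13, 5 and 23.6 CPM, so both oxazolone times were lower (-1.48 and -1.77) and MC903 was not called. Tnfsf4 (OX40L), the ligand of Tnfrsf4, had 58, 98, 73 and 47 UMIs per library. Conventional dendritic-like cells had 3 of them in untreated skin (0.461 CPM) and 45 at d10 (15.4 CPM, 5.07; 3.61 without the 5 highest cells, which held 64.4%), while fibroblast-like cells had 32 in untreated skin and 1 at d16 (-4.03).

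Tnfsf8 (CD30L), the ligand of Tnfrsf8, was mostly a T cell transcript, with 84.8% of its UMIs in gamma delta T-like cells in untreated skin. Levels there were 186 CPM untreated, 45.6 at d16 and 72.2 with MC903 (log2 ratios -2.02 and -1.36), in the differing clusters named for Tnfsf11. At d16 5 cells held 96.1% of the 76 UMIs, and without the 5 highest cells the ratio was -6.52. Meanwhile alpha beta T-like cells had 113, 107, 69.9 and 185 CPM with no call. Fibroblast-like cells had 0.4 CPM untreated and 1.87, 17.7 and 1.65 treated (2.23, 5.47 and 2.04), of which the MC903 value turned to -0.52 with doublets kept. The d16 value rests on few cells, since 1 cell held 145 of the 226 UMIs and the 5 highest held 84.1%. In keratinocyte-like cells at d10 (35 UMIs, log2 ratio 2.45) 5 cells held 97.1%, and without follicle clusters the ratio was -0.64. Cd40lg, the T cell ligand of Cd40, was at 1.29, 0.9, 1.16 and 5.09 CPM over all kept cells. Alpha beta T-like cells had 151 CPM untreated, 19.8 at d10 (-2.92), 34.9 at d16 (-2.11) and 97.0 with MC903. C8, which has Cd40lg among its leading genes, held 31 of 56 of these cells in untreated skin and 18 of 173 at d16, and within it Cd40lg was at 263 CPM untreated and 89.4 at d10. Gamma delta T-like cells had 10.3 CPM untreated and 79.9 with MC903 (2.96), again across differing clusters. C11 held 44.8% of Cd40lg in the MC903 library, at 187 CPM. Tnfsf18 (GITRL) had 95, 42, 28 and 38 UMIs and was lower in treated fibroblast-like cells, from 1.92 CPM to 0.851, 0.625 and 0.528 (-1.17, -1.62 and -1.86), though the MC903 ratio was 0.06 when cells were weighted equally.

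Cd40, the receptor by which antigen-presenting cells answer T cells, was led by conventional dendritic-like cells in untreated skin (61.9%) and by macrophage-like cells in treated skin (60.7%, 69.9% and 42.9%). In macrophage-like cells it stood at 52.2, 27.5, 20 and 33.7 CPM, lower at d16 (log2 ratio -1.38, but -0.85 with TMM scaling and -0.81 without the 5 highest cells). Fibroblast-like cells had 0.52 CPM untreated and 2.38 at d10 (2.20, on 28 against 13 UMIs). Neutrophil-like cells had 0 UMIs at d10 and 37 at d16 (1.11 CPM), at least 1.79 higher.

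Tnfrsf9 (4-1BB), Tnfrsf4 (OX40) and Tnfrsf18 (GITR), receptors known on activated and regulatory T cells, were each led by epithelial or gamma delta T-like cells in untreated skin. Tnfrsf9 stood at 360 CPM in gamma delta T-like cells (83.9% of its UMIs), 25.2 at d16 (log2 ratio -3.84) and 247 with MC903. The clusters differ between these libraries: C0 and C3 were at 276 and 605 CPM in untreated skin, C4 at 25.2 at d16 and C9 at 419 with MC903. In alpha beta T-like cells the direction was the reverse, with 69.0 CPM in untreated skin (22 UMIs) and 149, 211 and 256 in treated skin (1.11, 1.61 and 1.89). Without the 5 highest cells of each library these ratios were 4.74, 5.49 and 5.40. This removal takes most of the 22 untreated UMIs as well. The larger ratios thus rest on a nearly emptied reference and do not show a larger difference. Macrophage-like cells had 1 UMI untreated and 2.71, 8.39 and 15.7 CPM treated (1.48, 3.12 and 4.02), and with doublets kept the d10 ratio turned to -0.67. Keratinocyte-like cells held 79.9% of Tnfrsf4 and 75.6% of Tnfrsf18 in untreated skin. Tnfrsf4 there was at 15.5, 5.88, 10.1 and 8.57 CPM, lower at d10 (-1.39), and Tnfrsf18 at 47.2, 32.5, 53.8 and 43.0, with no call.

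At oxazolone d10 several costimulatory receptors stood higher in cells that carried Foxp3, the regulatory T cell factor. Among clusters closest to alpha beta T cells, taken with the unnamed C2 and C11 and so slightly wider than the named class, 113 cells had a Foxp3 UMI and 283 had none, with median depths of 5690 and 6717 UMIs. Tnfrsf9 was at 969 CPM against 154 (ratio 6.31, 5.53 to 7.22), Tnfrsf4 at 453 against 56.8 (7.97, 6.46 to 9.9), and Tnfrsf8 had a ratio of 22 (9.44 to 62.8). Tnfrsf18 and Tnfrsf1b had ratios of 2.66 (2.17 to 3.24) and 2.38 (1.95 to 2.91), and Tnfrsf13b one of 3.44 (2.08 to 5.73). Cd27 stood at 1.3 (0.998 to 1.68) and Fas at 1.53 (0.991 to 2.33), both short of 2-fold, as was Tnfrsf23 (0.729), while Tnfrsf26 was at 0.413. Ligands differed among themselves. Tnfsf8 (0.0109), Fasl (0.123), Tnfsf11 (0.287) and Tnfsf9 (0.43) were lower in Foxp3-positive cells, whereas Ltb (1.53, 1.22 to 1.91), Cd40lg (1.59, 0.973 to 2.54), Tnf (0.661) and Tnfsf10 (0.502) stayed within 2-fold. The other libraries had under 50 Foxp3-positive cells (22 untreated, 28 at d16 and 21 with MC903), and the d10 ratios recurred there only in part. Tnfsf8 was at 1.16 at d16 and 1.1 with MC903, beside 0 against 36 UMIs untreated. In untreated, d16 and MC903 skin, Cd40lg was at 0.311, 0.716 and 0.0697, Tnfrsf4 at 5.65, 17.8 and 1.84, and Tnfrsf9 at 5.48, 5.43 and 2.83. Fasl stayed lower, at 0.104 at d16 and 0.214 with MC903. C2, the unnamed cluster led by Foxp3, Ikzf2 and Ctla4, showed Tnfrsf9 at 403, 941 and 1060 CPM in untreated, d10 and d16 skin (32, 153 and 30 cells), and held the largest share of Tnfrsf4 at both oxazolone times (39.8% and 41.8%). With MC903 the largest share of Tnfrsf4 was in C11 (47.8%), at 379 CPM.

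Other T cell receptors of the family were scarcer. Cd27, a receptor of naive and memory T cells, was mainly in alpha beta T-like cells of treated skin (33.8%, 32.2% and 29.5%), at 47, 83.3, 50.7 and 78.7 CPM, and its ligand Cd70 had 9, 20, 9 and 3 UMIs. Tnfrsf8 (CD30) had 15 UMIs in untreated skin and 131, 612 and 115 in treated skin. Of these, neutrophil-like cells held 51.6% at d16, at 9.5 CPM against 1.72 at d10 (log2 ratio 2.47), and macrophage-like cells 38.3% with MC903, at 11.2 CPM against 0 UMIs in untreated skin, at least 1.94 higher. Tnfrsf25 (DR3), the receptor of Tnfsf15, had 89, 50, 113 and 45 UMIs, and gamma delta T-like cells at d16 stood at 45.6 CPM against 6.34 (2.85). Most of these d16 cells were in C4, unlike the untreated ones. Tnfsf15 had 33, 67, 60 and 11 UMIs, led by gamma delta T-like cells in untreated skin and macrophage-like cells with oxazolone.

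Fas, the death receptor, was lower in keratinocyte-like cells of all 3 treated libraries. They had 56.4 CPM in untreated skin (1758 UMIs), 9.37 at d10 (312 UMIs), 9.67 at d16 (25 UMIs) and 22.6 with MC903 (124 UMIs), with log2 ratios of -2.59, -2.54 and -1.32. The difference was present inside clusters seen in both libraries, from 35.1 to 11 CPM in A10 at d10 (-1.67) and from 99.0 to 23.7 at d10 (-2.06) and 28.1 with MC903 (-1.81) in A16. No single keratinocyte-like cluster was compared at d16, where A13, a follicle cluster, held 37 of the 75 cells. Neutrophil-like cells held most Fas at d10 and d16 (36.8% and 77.6%), at 130 and 234 CPM, with 339 under MC903. Fasl, its ligand, was at 12.5 CPM in untreated alpha beta T-like cells (4 UMIs) and 42.7, 67.9 and 55.7 in treated ones (1.77, 2.44 and 2.15). At d16, however, 74.0% of Fasl lay in neutrophil-like cells, at 18 CPM (597 UMIs) against 0.859 at d10 (8 UMIs), a log2 ratio of 4.38. The B3 cluster, led by Cd274 and Rsad2, was at 39.7 CPM at d16 and 57.1 with MC903.

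Tnfsf10 (TRAIL) was led by gamma delta T-like cells in untreated skin (64.2%), blood endothelial-like cells at d10 and with MC903 (40.4% and 26.9%) and alpha beta T-like cells at d16 (26.8%). Gamma delta T-like cells were at 54.4 CPM untreated and 18.6 at d16 (log2 ratio -1.55), in the differing clusters named for Tnfsf11. Tnfrsf10b, the signaling TRAIL receptor of the mouse, was held by chondrocyte-like cells in untreated and d10 skin (50.5% and 50.2%), at 54.4, 48.8, 59.8 and 23.2 CPM, lower with MC903 (-1.23). It was higher in fibroblast-like cells at both oxazolone times, at 3.91 and 3.99 CPM against 1.36 (1.53 and 1.55), and in gamma delta T-like cells at d16, at 28.2 against 3.43 (3.04). Among chondrocyte-like cells 1 of 12 measured members was higher with MC903 and 5 lower, against 5.13% and 13.2% of all genes.

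Tnfrsf22, Tnfrsf23 and Tnfrsf26 lie side by side on chromosome 7, and the first pair are known as TRAIL decoys without a death domain. Tnfrsf23 was at 6.12, 30.3, 120 and 21.2 CPM over all kept cells and Tnfrsf26 at 3.43, 11.5, 109 and 18.9, both highest at d16, where neutrophil-like cells held 84.3% and 83.1%. Levels of Tnfrsf23 in neutrophil-like cells were 220, 296 and 228 CPM in the treated libraries and did not differ 2-fold, whereas Tnfrsf26 was at 74.0, 265 and 169, with d16 above d10 (log2 ratio 1.84). Macrophage-like cells showed both higher in all treated libraries: Tnfrsf23 went from 5.8 CPM (6 UMIs) to 18.5, 38.4 and 36.0 (1.67, 2.72 and 2.63), and Tnfrsf26 from 1.93 CPM (2 UMIs) to 8.8, 42.0 and 33.5 (2.19, 4.44 and 4.11). These stood at 8.42%, 13% and 15.8% of the neutrophil level for Tnfrsf23 and 11.9%, 15.9% and 19.8% for Tnfrsf26, against 0.446%, 2.99% and 0.717% for the neutrophil markers in the same cells. Tnfrsf22 had 184, 292, 374 and 170 UMIs. Tnfrsf22 and Tnfrsf23 share 19.7% of the 50-base windows in the last 500 bases of their longest transcripts, where 3′ reads fall, and neither shares any with Tnfrsf26. All 3 genes overlap the antisense gene E230032D23Rik, so their counts are uncertain to that degree.

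Tnfsf13b (BAFF), a survival factor for B cells, moved apart in fibroblast-like and macrophage-like cells. Fibroblast-like cells had 2.28 CPM untreated, 4.25 at d10, 11.3 at d16 and 6.27 with MC903, with log2 ratios of 2.31 at d16 and 1.46 with MC903. Macrophage-like cells had 8.7 CPM untreated on 9 UMIs, then 6.26, 0.699 and 2.79, with d16 lower (-3.64). In neutrophil-like cells Tnfsf13b was at 32.2 CPM at d10, 6.92 at d16 and 12.1 with MC903, and d16 was below d10 (-2.22). Fibroblast-like cells at d16 thus exceeded the neutrophil-like cells of the same library, at 164% of their level. Tnfsf13 (APRIL) was mainly in macrophage-like cells with oxazolone (81.7% and 87.7%), at 34.8, 30.9, 23.7 and 28.1 CPM without a call, and lower in conventional dendritic-like cells at both oxazolone times (-2.27 and -2.40). Tnfrsf13b (TACI), the receptor of both, was led in untreated skin (61.4%) by gamma delta T-like cells, whose clusters differ between libraries, at 156 CPM against 12.6 at d16 (-3.63) and 46.0 with MC903 (-1.76). Macrophage-like cells led it in treated skin, at 35.8, 44, 22.6 and 31.4 CPM without a call. Tnfrsf13c and Tnfrsf17, receptors of B cells and plasma cells, had at most 24 and 10 UMIs in a library.

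Edar, the ectodysplasin receptor of hair follicles, had 89.1%, 96.3% and 56.6% of its UMIs in keratinocyte-like cells of the untreated and oxazolone libraries. With MC903 the unnamed cluster A7 held 51.3% and keratinocyte-like cells 39.2%. Keratinocyte-like cells stood at 29.9, 33.4, 18.2 and 13.5 CPM, lower with MC903 (log2 ratio -1.15), and within A16 at 73.0 CPM untreated and 18.6 with MC903 (-1.97). In the follicle cluster A13 it was higher at d10, at 9.98 CPM against 2.22 (2.17). Eda2r, the other ectodysplasin receptor, was led by fibroblast-like cells in 3 libraries, at 7.08, 2.47, 7.12 and 9.96 CPM, with d10 lower (-1.52). Tnfrsf19 (TROY), a receptor of follicle and stem cells, was at 35.5 CPM in untreated keratinocyte-like cells, 138 at d10, 46 at d16 and 8.94 with MC903 (1.96 at d10 and -1.99 with MC903). The d10 value came from hair follicle clusters, A20 at 332 CPM and the cycling A28 at 204, which held 466 and 188 of the 1393 cells. Without follicle clusters, an alternative chosen after seeing the data, the d10 ratio turned to -0.96, and within A10 Tnfrsf19 went from 75.5 to 25.7 CPM. In fibroblast-like cells Tnfrsf19 was at 21.2, 15.3, 1.17 and 14 CPM, with d16 lower (-4.17, 15 UMIs).

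Ngfr, the neurotrophin receptor, was mostly in conventional dendritic-like cells in untreated skin (57.1%), at 34.6 CPM there and 12.4 and 10.2 with oxazolone (log2 ratios -1.49 and -1.76). In fibroblast-like cells it was at 2.52, 2.30, 0.547 and 0.396 CPM, lower at d16 (-2.20) and with MC903 (-2.67). Keratinocyte-like cells had 2.21, 3.72, 6.97 and 0.365 CPM, higher at d16 (1.65, on 18 UMIs, but 0.86 without the 5 highest cells) and lower with MC903 (-2.60). Tnfrsf21 (DR6), a death domain receptor known in neurons and glia, was higher in fibroblast-like cells with oxazolone, at 48.3 and 32.5 CPM against 7.16 (2.75 and 2.18), while MC903 was at 9.17. It was lower in conventional dendritic-like cells with oxazolone, at 18.2 and 13.4 against 61.2 CPM (-1.75 and -2.19). Chondrocyte-like cells stood at 112, 204, 145 and 259 CPM, higher with MC903 (1.21).

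Counted by class, fibroblast-like cells had 8 of 27 measured members higher and 3 lower at oxazolone d10, against 9.32% and 6.44% of all genes, with a median log2 ratio of 0.09 against -0.01. At d16 they had 7 of 25 higher and 5 lower, against 9.69% and 14.8%, with medians of 0.01 and -0.20. With MC903 they had 5 of 29 higher and 5 lower, against 10.2% and 10.0%, with medians of -0.09 and 0.03. The higher members at d10 were Tnfsf11, Tnfrsf21, Tnfsf8, Cd40, Tnfrsf11b, Tnfrsf10b, Tnfrsf23 and Tnfrsf11a, of which Tnfrsf23 went from 10.0 to 23.2 CPM (1.22). Tnfsf11 and Tnfsf8 were called higher in all 3 treated libraries and Tnfsf18 lower in all 3. With MC903 Tnfrsf26 was at 15.7 CPM against 4.92 (1.67).

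Keratinocyte-like cells had 8 of 28 measured members higher and 4 lower at d10 (15.3% and 9.8% of all genes), 5 of 22 higher and 4 lower at d16 (10.9% and 14.4%) and 2 of 22 higher and 9 lower with MC903 (5.33% and 16.6%). The 8 at d10 became 2 without follicle clusters and 4 with doublets kept. Their medians were 0.08, 0.13 and -0.52, against 0.17, -0.03 and -0.09 for all genes. Cell numbers were 1923, 1393, 75 and 124, so d16 and MC903 values rest on few cells. The classes also differed in composition: A10 and A16 held 846 and 528 of the untreated cells. A13 and A20, both follicle clusters, held 503 and 466 at d10 and 37 and 14 of the 75 cells at d16. In untreated skin A13 and A20 held 277 and 2. A16 held 64 with MC903 and 1 at d16. The d16 ratios were not recomputed without follicle clusters. Every keratinocyte-like ratio given here for d16 carries this limit. The Tnf values belong among those that turn with composition. Tnf was at 1.57, 4.41, 16.3 and 1.82 CPM, with log2 ratios of 1.49 at d10 and 3.37 at d16; without follicle clusters the d10 ratio was -1.90, and at d16 the 5 highest cells held 76.2% of the UMIs. Relative to neutrophil-like cells, keratinocyte Tnf was at 4.62% at d10 and 2.62% at d16, beside 0.476% and 1.93% for the neutrophil markers, whose part was not tested. Tnfrsf23 at d16 was at 8.51 CPM against 2.44 (1.80, but 0.43 without the 5 highest cells), or 2.88% of the neutrophil level, beside 1.93% for the neutrophil markers. Also called were Tnfsf13b (1.6), Ltb (1.29, but -0.76 without follicle clusters), Tnfsf10 (1.26) and Tnfrsf13b (1.15, but -0.06 with cells weighted equally) at d10. At d16 Tnfrsf22 was higher (1.35, but -1.72 without the 5 highest cells), and lower were Tnfsf12 (-1.27) and Cd27 (-1.24) at d16 on 1 and 2 UMIs; Cd27 turned to 0.67 with doublets kept. With MC903 Tnfsf12 (-2.35, but -0.12 without the 5 highest cells), Eda2r (-1.90) and Tnfsf9 (0 UMIs against 60, at most -1.82) were lower.

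Macrophage-like cells had 4 of 26 measured members higher and 3 lower at d10 (7.12% and 8.46% of all genes), 4 of 25 higher and 5 lower at d16 (7.77% and 23.4%) and 9 of 19 higher and 1 lower with MC903 (8.78% and 8.86%). Medians were -0.02, -0.10 and 0.83, against 0.00, -0.33 and -0.03 for all genes. The clusters of this class differ between libraries, as given for Tnf. The same 4 members, Tnfsf14, Tnfrsf9, Tnfrsf23 and Tnfrsf26, were higher in each treated library, and each had at most 6 UMIs in the 114 untreated cells. Without the 5 highest cells Tnfsf14 was short of 2-fold at d16 (0.72) and Tnfrsf9 with MC903 (0.48). With MC903 Tnf, Tnfsf9, Tnfrsf12a, Tnfrsf8 and Tnfsf8 (8.11 CPM against 2.9, 1.48, but -0.33 with doublets kept) were also called higher, although all 32 of these Tnfsf8 UMIs lay in 1 cell. Tnfsf8 was lower at d10 (-1.21, against 3 UMIs untreated) and Cd27 at d16 (-1.04, against 2 UMIs). The neutrophil markers stood at 90.9, 609, 3900 and 825 CPM in these cells, and their part in the member values beyond the shares given above was not tested.

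Neutrophil-like cells were compared between treated libraries only. At d16 against d10, 8 of 26 measured members were higher and 4 lower, against 10.1% and 32.3% of all genes, with a median log2 ratio of 0.47 against -0.56. This split depends on scaling: centred on the median of all genes it was 13 higher and 1 lower, and with TMM scaling 14 and 1. Members called higher included Tnf, Fasl, Tnfrsf26, Tnfrsf1b (1.10) and Tnfsf8 (57 UMIs against 1, 4.00), but 1 cell held 53 of those 57 Tnfsf8 UMIs and 5 cells held 100%. Called lower were Tnfsf13b, Tnfrsf19 (-1.45), Tnfrsf21 (9.23 against 24 CPM, -1.38) and Tnfrsf18 (3.49 against 8.17, -1.23). With TMM scaling the last 3 were at -0.81, -0.74 and -0.59, short of 2-fold. MC903 against oxazolone d16 gave 0 higher and 0 lower of 25, against 13.2% and 7.4% of all genes, with no replicated test behind this count.

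Among lymphoid and dendritic cells, gamma delta T-like cells had 6 of 21 measured members higher and 10 lower at d16 (7.34% and 30.8% of all genes; median -0.65 against -0.55) and 3 of 19 higher and 4 lower with MC903 (7.26% and 10.5%). The clusters of this class differ between libraries, as given for Tnfsf11. Besides those named above, Tnfsf14 (17.4 against 4.23 CPM, 2.04) and Tnfsf9 (1.02) were higher at d16, and Tnfsf12 (-5.04, 1 UMI), Tnfrsf21 (-2.26), Fas (-2.00), Tnfrsf26 (-1.61) and Tnfrsf18 (-1.35; -0.94 with TMM scaling) lower. With MC903 Tnfrsf23 (2.23) was higher and Tnfrsf21 (-1.56) and Tnfsf12 (-1.37) lower. Alpha beta T-like cells had 3 of 16 higher and 5 lower at d10 (6.7% and 6.89%), 3 of 15 higher and 4 lower at d16 (5.15% and 16.2%) and 4 of 15 higher and 1 lower with MC903 (5.88% and 7.57%), all against 56 untreated cells. Tnfrsf4 was higher there with MC903, at 179 CPM against 65.8 (1.44), but 5 of the 87 cells held 71.5% of the 186 UMIs. Without the 5 highest cells of both libraries the ratio was 4.08, with almost no UMIs left in the untreated cells, so it does not show a larger difference. Tnfrsf1b was lower at d10 (-1.14, but -0.91 with TMM scaling) and Fas at d16 (-1.15, but 0.04 without the 5 highest cells). Tnfsf9 was higher at both oxazolone times (2.77 and 2.61), against 1 UMI in untreated skin. Conventional dendritic-like cells had 3 of 20 higher and 5 lower at d10 (7.25% and 9.41%) and 2 of 18 higher and 7 lower at d16 (9.24% and 20.3%). Ltb was higher at d10, at 13 CPM against 2.62 (2.32, but -1.26 with doublets kept), Tnfrsf23 at both times (1.24 and 2.48), and Tnfrsf9 at d16, at 27.6 CPM against 5.54 (2.32). These rest on few cells: 5 cells held 100% of the 35 Tnfrsf9 UMIs at d16, 1 of them 30, and without the 5 highest cells Tnfrsf23 was at 0.88 and 0.30. Tnfsf12 (-2.65) and Tnfsf8 (-2.50, but -0.10 without the 5 highest cells) were lower there at d16.

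The 66 other genes listed for TNF receptor signaling (adaptors, kinases, ubiquitin enzymes, NF-kB subunits, sheddases, induced genes and further ligands) were counted the same way. Fibroblast-like cells had 6 of 62 higher and 5 lower at d10 (9.32% and 6.44% of all genes), 15 of 61 higher and 5 lower at d16 (9.69% and 14.8%) and 2 of 61 higher and 0 lower with MC903 (10.2% and 10.0%). Sod2, a mitochondrial superoxide dismutase induced by TNF, was higher in all 3 (2.33, 2.54 and 1.6 on the log2 scale), and Bdnf, a neurotrophin, at both oxazolone times (2.70 and 2.98). The d16 calls included Traf1 (2.00), an adaptor of Tnfrsf1b, and Rhbdf2 (2.51), which escorts the TNF-cleaving protease. Keratinocyte-like cells had 8 of 65 higher and 9 lower at d10 (15.3% and 9.8% of all genes), 12 of 61 higher and 6 lower at d16 (10.9% and 14.4%) and 4 of 61 higher and 9 lower with MC903 (5.33% and 16.6%). The negative regulator Tnip1 was lower at d10 and with MC903 (-2.21 and -1.96), as was Tnfaip3 (A20) at d10 (-1.93), while Tnfaip2 was higher in the same libraries (2.29 and 2.31). Macrophage-like cells had 3 of 59 higher and 8 lower at d10 (7.12% and 8.46% of all genes), 12 of 58 higher and 7 lower at d16 (7.77% and 23.4%) and 11 of 55 higher and 1 lower with MC903 (8.78% and 8.86%). Ripk3, a kinase of necroptosis, was higher at d16 and with MC903 (2.12 and 2.29), as were Ier3 (1.80 and 2.25) and the NF-kB inhibitor Nfkbia (1.62 and 1.92). Neutrophil-like cells had 18 of 61 higher and 7 lower at d16 against d10 (10.1% and 32.3% of all genes), among them Icam1 (2.55), Nfkb1 (2.43) and Sod2 (2.41) higher and Sele (-2.73) and Traf5 (-2.43) lower. Several of these counts lie near or below the share of all genes. The ratios of signaling genes were not recomputed under the alternatives. They carry no check for follicle clusters, doublets, single high cells or scaling. Sele, for example, is among the leading genes of the blood endothelial-like cluster A27, and the part of RNA from other cells was not tested.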

How the data were processed

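RNA was counted in single cells of 4 skin libraries with the 10x Genomics 3′ chemistry. Each deposited matrix holds raw UMI counts per gene and cell barcode. Per the file headers, the authors made them with Cell Ranger, version 7.2.0 (untreated, oxazolone d10) or 8.0.0 (oxazolone d16, MC903); the submitters' processing notes name version 8.0 and mm10. The version differs along with the groups, and its effect was not tested. How intronic reads and strand were handled is not given in the sources used here. Depth lay between 73054242 and 119717836 UMIs a library.

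Barcodes under 300 genes or above 15% mitochondrial UMIs were left out, and doublets, scored by the Scrublet method, were removed at 0.8% per 1000 barcodes (481, 607, 538 and 140 cells). Cells were clustered on 2000 variable genes, members left out, with 30 principal components, 15 neighbours and Leiden resolution 1 (scanpy 1.11.5, leidenalg 0.10.2, Python 3.11.15), and Ptprc-positive and lymphoid clusters again, giving 65 clusters, 10 of them unnamed. A name needed a marker score of at least 4, a margin of 0.5 and 3 markers each in 20% of cells. It was also withheld from clusters of low depth, and from those whose top genes included fewer markers of their own class than of another. C2 and C11 met the score, margin and marker requirements for alpha beta T-like cells and were unnamed for their top genes only. The alpha beta T-like class therefore leaves them out. UMIs were summed per class and library as CPM. Ratios carry exact conditional binomial intervals and levels exact Poisson intervals at 95% (scipy 1.17.1). A count of 0 was set to 3 UMIs, which gives a bound. TMM scaling used edgeR 4.0.16. The ratio step was tested on simulated data.

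Members and gene lists were chosen with earlier results of these data known. Named genes are all members with a stated role, up to 8 called members per class and comparison and up to 5 genes of the signaling list. Results were recomputed under 11 other settings, and 5 more were added after seeing the data. Gene positions come from GENCODE M21 (GRCm38, all 44 members matched) and promoters from RefSeq GRCm38.p6 (34 matched). Members overlapping genes on the other strand, such as Tnfrsf9 with Camta1, Cd27 with Vamp1, Tnfrsf18 with Gm16008, Tnfrsf19 with Gm41168 and Tnfsf9 with Gm11110, could share reads if strand was ignored.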

Additional observations from a re-analysis of the deposited data

Results flagged for a closer look

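For 5 members the ratio over untreated skin went in opposite directions in different classes of the same library; each rests on 1 library per group and the difference was not tested. Tnfsf13b at oxazolone d16 was higher in fibroblast-like cells (2.31 on the log2 scale) and lower in macrophage-like cells (-3.64), a difference of 5.95. Tnfrsf11a at d10 was higher in fibroblast-like cells (1.17) and lower in keratinocyte-like cells (-2.84), a difference of 4.01. Ngfr at d16 was higher in keratinocyte-like cells (1.65) and lower in fibroblast-like cells (-2.20), a difference of 3.85. The keratinocyte ratio was not recomputed without follicle clusters, of which A13 held 37 of the 75 cells. Tnfsf9 with MC903 was higher in macrophage-like cells (1.44) and at most -1.82 in keratinocyte-like cells, which gives 3.26. Tnf at d10 was higher in keratinocyte-like cells (1.49) and lower in macrophage-like cells (-1.42), a difference of 2.91, but the keratinocyte ratio turned to -1.90 without follicle clusters.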

How the results depend on the processing

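No paired analysis was possible because each group has 1 library. The called log2 ratios numbered 163 in 7 classes, and each was recomputed under several alternatives. Of the recomputed ratios, 1310 stayed within their counting interval, 174 moved and 14 reversed. Of the counts of members, 198 stayed within 1.5 times and 40 did not. Of the shares of UMIs held by a class, 61 moved and 89 stayed with doublets kept. At clustering resolution 0.5, 5 of these shares moved and 145 stayed. Holder shares thus depended on whether doublets were removed. Of the thinned shares of cells, 74 moved and 14 stayed when thinned to 2000 UMIs. The cause of a change was not tested unless the alternative itself shows it. Without the 5 highest cells, Tnfsf11 in alpha beta T-like cells at d10 turned to 0.18, Fas in those cells at d16 to 0.04 and Tnfrsf22 in keratinocyte-like cells at d16 to -1.72. With doublets kept, Ltb in conventional dendritic-like cells at d10 turned to -1.26, Tnfsf8 in fibroblast-like cells with MC903 to -0.52, Cd27 in keratinocyte-like cells at d16 to 0.67, Tnfrsf9 in macrophage-like cells at d10 to -0.67 and Tnfsf8 in macrophage-like cells with MC903 to -0.33. With cells weighted equally, Tnfsf18 in fibroblast-like cells with MC903 turned to 0.06 and Tnfrsf13b in keratinocyte-like cells at d10 to -0.06. Without follicle clusters, keratinocyte-like cells at d10 gave -0.64 for Tnfsf8, -0.96 for Tnfrsf19, -0.76 for Ltb and -1.90 for Tnf, and 2 members higher.

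At 3-fold, which asks for larger ratios, fibroblast-like cells at d10 had 5 higher and 0 lower; keratinocyte-like cells 4 higher and 2 lower at d10, 2 lower at d16 and 1 higher with MC903; macrophage-like cells 0 lower at d10, 2 lower at d16, and 5 higher and 0 lower with MC903; and neutrophil-like cells 1 lower. With TMM scaling, macrophage-like cells had 2 lower at d16 and 0 with MC903, and neutrophil-like cells 14 higher and 1 lower; centred on all genes, these had 13 and 1. With at least 10 UMIs, fibroblast-like cells had 8 lower at d16 and 8 with MC903, keratinocyte-like cells 10 higher at d16 and macrophage-like cells 3 lower with MC903. With at least 100 UMIs, fibroblast-like cells had 4 higher at d10 and 2 lower at d16 and with MC903; keratinocyte-like cells 3 higher at d10, 0 higher and 2 lower at d16 and 1 higher with MC903; macrophage-like cells 3 lower at d16 and 5 higher with MC903. Weighting cells equally gave 11 higher in fibroblast-like cells at d16, and in keratinocyte-like cells 8 lower at d16 and 1 higher with MC903. With doublets kept, fibroblast-like cells had 5, 8 and 9 lower at d10, d16 and with MC903, and keratinocyte-like cells 4 higher at d10 and 5 with MC903. Without cluster A11, fibroblast-like cells at d10 had 6 lower. Counts in keratinocyte-like cells at d16 (75 cells) and ratios over the 114 untreated macrophage-like and 56 untreated alpha beta T-like cells have the least depth.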

Other observations

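A class enters no comparison with a library in which it has fewer than 50 cells, but several such classes held high levels of single members. Mature dendritic-like cells (4, 35, 20 and 2 cells in the untreated, oxazolone d10, oxazolone d16 and MC903 libraries) had 185, 356, 370 and 914 CPM of Cd40 and 470, 245, 206 and 417 CPM of Tnfrsf11a. NK-like cells (17, 78, 10 and 19 cells) had 112, 94.6, 63.1 and 93.8 CPM of Fasl and 24.9, 165, 343 and 167 CPM of Tnfrsf9. ILC2-like cells (69, 12, 1 and 20 cells) had 206 CPM of Tnfrsf18 and 244 CPM of Ltb in untreated skin and 136 and 70.5 CPM with MC903. Blood endothelial-like cells (8, 107, 51 and 48 cells) had 114, 60.7 and 68.5 CPM of Tnfsf10 and 69.1, 84.9 and 179 CPM of Tnfrsf11a in the 3 treated libraries. At d16 against d10, 0 of their 13 measured members were higher and 3 lower, against 2.21% and 8.28% of all genes. Mural-like cells (256, 214, 32 and 218 cells) had 161, 196, 19.2 and 187 CPM of Tnfrsf21. They were also compared with untreated skin at d10 and with MC903, and those member counts are not given here.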
